A study of Mus musculus with 3 samples.

Results

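The chromosome 19 window that holds Gnaq and Gna14, a pair of neighbouring mouse genes for G protein alpha subunits of the Gq family, contained 66 of the 172496 open chromatin sites listed in fat cells from 3 depots. Members were chosen by position: every site with its midpoint between 16100000 and 16720000 on chromosome 19 of the build mm9, with Gnaq at the low end and Gna14 at the high end. The window of 620 kb was proposed because sites listed in epididymal fat alone were known to be dense in its second stretch of 100 kb. Counts, overlaps, tag counts and ranks within it are therefore descriptions of these lists and carry no test. The epididymal list held 26 of the sites, the inguinal list 21 and the brown fat list 19.

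The cells were adipocytes differentiated in culture from the stromal-vascular fraction of male NMRI mice aged 4 to 5 weeks. One group came from epididymal white fat (eWAT), another from inguinal white fat (iWAT), and the last from brown fat (BAT) pooled from the interscapular, cervical and axillary depots. All 3 groups received 30 nM insulin, 10% newborn calf serum and 1 µM rosiglitazone, an activator of PPARγ, and were harvested on day 8 after plating. DNase I (120 U/ml) was used to cut accessible DNA. A culture had to be more than 50% differentiated, per the labels' protocols, so undifferentiated cells could still be present. There was 1 library per depot, so every difference below is between single libraries. A site that is open in fewer cells and one that is less open in each cell cannot be told apart. The labelled cell types were not checked against marker genes here.

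Alpha subunits of the Gq family carry the signal of activated receptors, such as those for endothelin, to phospholipase C beta. That enzyme releases inositol trisphosphate and diacylglycerol, which raise calcium in the cell and activate protein kinase C. Gnaq encodes the widely expressed member that gave the family its name, and Gna14 encodes a related member with a narrower range of tissues. In brown adipocytes, Gq signalling is known to restrain differentiation. In the RefSeq gene order of GRCm38.p6 both genes lie side by side among protein-coding genes, separated by pseudogenes and Mir496b. The long noncoding RNA gene Gm32026 comes before Gnaq. After Gna14 come the pseudogene Gm8222, the long noncoding RNA gene Gm41811 and then the protein-coding gene Vps13a.

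The 2 genes differ in the sequence before their start sites, which is shown so that the regulatory DNA of both members can be compared. The 250 bases before each start are given 5′ to 3′ on the plus strand, from RefSeq on GRCm38.p6 (Gnaq at chr19:16132434-16132683, Gna14 at chr19:16435417-16435666), with each CG pair in capitals. These coordinates belong to another build than the site lists and cannot be set against the mm9 positions.
Gnaq: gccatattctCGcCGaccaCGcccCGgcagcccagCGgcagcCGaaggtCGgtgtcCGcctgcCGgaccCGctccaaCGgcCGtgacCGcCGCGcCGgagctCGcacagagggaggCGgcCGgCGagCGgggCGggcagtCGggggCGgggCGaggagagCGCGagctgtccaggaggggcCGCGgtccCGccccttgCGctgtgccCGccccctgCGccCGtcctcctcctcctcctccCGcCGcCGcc
Gna14: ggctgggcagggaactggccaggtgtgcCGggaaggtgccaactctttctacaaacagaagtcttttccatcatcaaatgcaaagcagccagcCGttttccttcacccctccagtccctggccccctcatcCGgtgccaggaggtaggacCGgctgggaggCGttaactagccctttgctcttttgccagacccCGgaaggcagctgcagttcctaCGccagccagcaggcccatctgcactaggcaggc
The Gnaq stretch held 37 CG pairs, and 97.8% of 32851 RefSeq promoter stretches of that length held fewer. The Gna14 stretch held 7, close to the median of 6. A GC box (GGGCGG on either strand, which always includes a CG pair) occurred 4 times before Gnaq and not before Gna14, and was present in 32.7% of all such stretches. Neither stretch held CCAAT or TATAAA on either strand, which 33.8% and 12.4% of the stretches held. A match is a description of letters only, and which listed site, if any, covers either promoter was not analysed here.

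Of the 66 sites, 30 were listed by a single depot, and the strong sites were mostly ones that the depots had in common or placed side by side. Strong sites were mostly shared in the whole lists too, where 8.59% (eWAT), 9.8% (iWAT) and 8.19% (BAT) overlapped no other list. The 66 sites merged into 45 regions, of which 30 (66.7%, 95% interval 51.0 to 80.0) were held in a single list, against 51.5% of the 99297 regions of the whole series. Another 9 of the 45 were held in exactly 2 lists, against 23.3% in the series. Only 6 regions (13.3%, 5.05 to 26.8) were held in all 3 lists, against 25.2% in the series. The window was proposed for its dense eWAT-only sites, so these shares of single-list and common regions partly describe that choice. Single-list regions numbered 15 for eWAT (33.3% of the window's regions, against 19.6%), 7 for iWAT (15.6%, against 20.5%) and 8 for BAT (17.8%, against 11.4%). With sites up to 200 bp apart joined as well, single-list places made up 16 of 36 (44.4%), against 42.5% in the series. That near match of the total combined unlike depots. The eWAT-only share stayed above its background (30.6%, against 16.8%) and the iWAT-only share below (11.1%, against 17.1%). The BAT-only share then turned from above to below its background, with 1 of 36 (2.78%, against 8.68%).

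**Figure D1:**
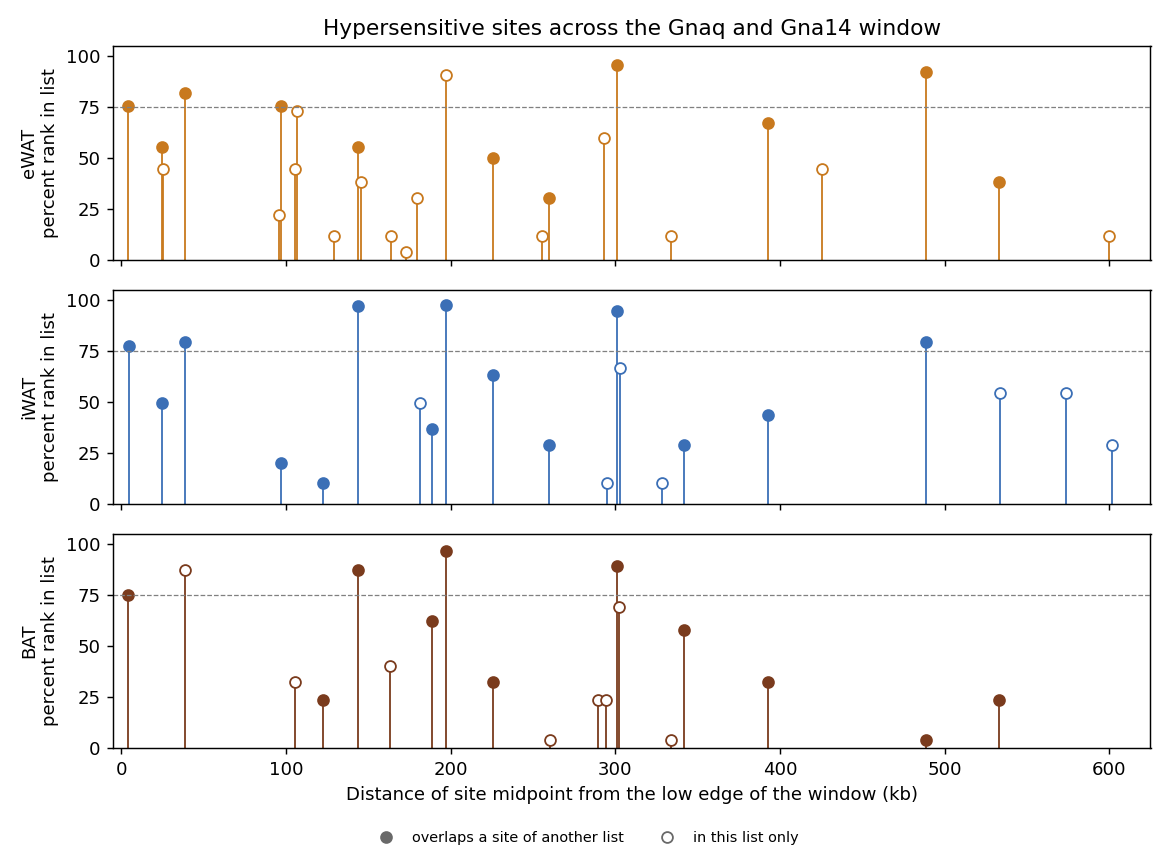
Each stem is 1 site; the x axis is the distance of its midpoint from the low edge of the window in kb and the y axis its percent rank by tag count within its own list, for eWAT, iWAT and BAT from top to bottom. Filled circles overlap a site of another list, open circles do not, and the dashed line marks a rank of 75%; most of the open eWAT circles stand low, and the tall stems near 197 kb and 301 kb recur in every panel.

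Counted by sites, 15 of the 26 eWAT sites (57.7%, 95% interval 36.9 to 76.6) were found in no other list, where 32.0% of all eWAT sites were. The same held for 7 of 21 iWAT sites (33.3%, 14.6 to 57.0), against 32.1%, and for 8 of 19 BAT sites (42.1%, 20.3 to 66.5), against 23.5%. The eWAT share describes the choice of the window, which was proposed for its dense eWAT-only sites. The iWAT share was near its background, and the interval of the BAT share included its background. With a gap of up to 200 bp counted as shared, 5.26% of the BAT sites were restricted, against 16.0% of the list. The share found in a given other list was below that of the whole list in all 6 directions. Of the 26 eWAT sites, 9 overlapped an iWAT site (34.6%, 95% interval 17.2 to 55.7, against 58.1%) and 7 a BAT site (26.9%, 11.6 to 47.8, against 48.6%). Both eWAT shares again describe the choice of the window. In the other 4 directions the interval included the background, and none of these intervals is a test. An eWAT site was overlapped by 9 of 21 iWAT sites (42.9%, 21.8 to 66.0, against 56.0%) and by 7 of 19 BAT sites (36.8%, 16.3 to 61.6, against 61.4%). A BAT site was overlapped by 10 of 21 iWAT sites (47.6%, 25.7 to 70.2, against 49.1%), and an iWAT site by 10 of 19 BAT sites (52.6%, 28.9 to 75.6, against 64.2%). The number of eWAT-only regions depended on the length of the lists. It was 9 when the lists were made equally long, against 5 for iWAT and 9 for BAT, and 7 when all lists had the same minimum score of 8.87 normalized tags, against 8 and 6.

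Tag counts were ranked within each list, since no source used here states a common scaling total. In eWAT a single tag was worth 0.595 normalized tags, compared with 0.985 for iWAT and 0.857 for BAT. Percent rank is the share of the list with a lower tag count, with ties counted as 50%. The median number of tags per window site was 15 for eWAT, 14 for iWAT and 12 for BAT, against 16, 14 and 14 in the whole lists. Strong sites, in the top 25% of their list, made up 6 of the 26 eWAT sites (23.1%, 95% interval 8.97 to 43.6), 6 of the 21 iWAT sites (28.6%, 11.3 to 52.2) and 5 of the 19 BAT sites (26.3%, 9.15 to 51.2). With ties, 25.6%, 26.1% and 26.2% of the lists met this limit, so the window was not rich in strong sites in any depot. Of these strong sites, 1 of 6 in eWAT, 0 of 6 in iWAT (exact 95% upper bound 45.9%) and 1 of 5 in BAT overlapped no other list, against 8.59%, 9.8% and 8.19% of the strong sites of the lists.

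The 6 regions held in all 3 lists are described from the Gnaq end to the Gna14 end. The first ran from 16103930 to 16104434 and ranked alike in the depots: the eWAT site at 75.6%, the iWAT site at 77.4% and the BAT site at 75.04%. Its normalized tag counts were 13.7, 21.7 and 18.0, which equal 23, 22 and 21 tags. The eWAT and iWAT sites did not overlap each other there, and both were joined through the BAT site between them.

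At 16243258 to 16243586 the region was strong in iWAT and BAT and middling in eWAT. The eWAT site held 10.1 normalized tags, the iWAT site 45.3 and the BAT site 24.0, or 17 (95% counting interval 9.90 to 27.2), 46 (33.7 to 61.4) and 28 (18.6 to 40.5) tags. The ranks were 55.2%, 97.3% and 87.2%. The eWAT rank was thus 42.1 points below that of iWAT and 32.0 points below that of BAT. Among the 24988 common regions of the series with 1 site per list, 3.35% had an eWAT rank as far below iWAT, and 5.05% as far below BAT. Fold over the surroundings gave the same order, with 6.46 for eWAT, 21.1 for iWAT and 14.6 for BAT.

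The region from 16325465 to 16325823 was of moderate strength. Its sites held 9.52 (eWAT), 16.7 (iWAT) and 10.3 (BAT) normalized tags, at ranks of 50.1%, 63.1% and 32.6%. At 16400635 to 16400892, nearer the middle of the window, lay the common region with the highest eWAT site of the window. Its normalized tag counts were 24.4 for eWAT, 37.4 for iWAT and 25.7 for BAT (41, 38 and 30 tags), and the ranks of 95.5%, 94.6% and 89.4% were high in every depot. The midpoints of its 3 sites lay within 36 bp of each other. Toward the Gna14 end, the region from 16492638 to 16492954 had an eWAT site of 11.9, an iWAT site of 12.8 and a BAT site of 10.3 normalized tags, which ranked at 67.1%, 43.5% and 32.6%.

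The common region nearest the high end, from 16588718 to 16589033, was strong in both white depots and among the weakest sites of the BAT list. The eWAT site held 20.8, the iWAT site 22.7 and the BAT site 7.71 normalized tags, which equal 35 (95% counting interval 24.4 to 48.7), 23 (14.6 to 34.5) and 9 tags (4.12 to 17.1). The ranks were 92.3%, 79.5% and 3.75%. The eWAT rank stood 88.6 points above the BAT rank, and 0.032% of the common regions of the series showed a gap that large. The iWAT rank stood 75.7 points above BAT, a gap reached by 0.304% of them. Fold over the surroundings was 16.0 for eWAT, 16.1 for iWAT and 7.59 for BAT. Ranked by this fold, BAT was still lowest at 33.6%, against 95.8% in eWAT and 83.3% in iWAT, but the gap was smaller. Near the bottom of a list a few tags move the rank far: the BAT sites with 11 tags ranked at 23.4%.

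**Figure D2:**
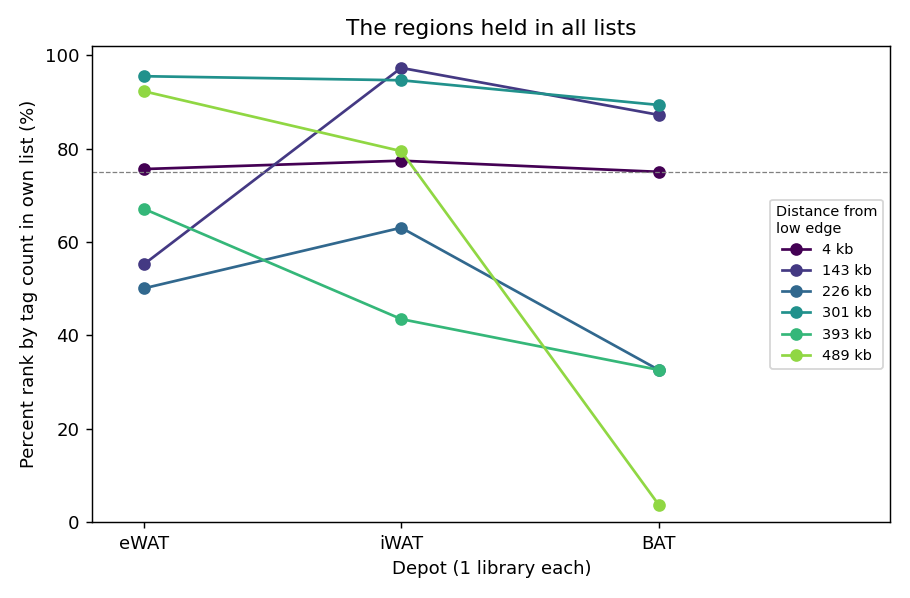
Percent rank by tag count in its own list (y axis) for each of the 6 common regions in eWAT, iWAT and BAT (x axis, 1 library each); each line is 1 region, coloured by its distance from the low edge of the window. The region at 143 kb is lowest in eWAT, and the region at 489 kb falls from 92.3% in eWAT to 3.75% in BAT.

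BAT had the lowest rank of the 3 depots in 5 of the 6 common regions and eWAT in 1. Across the common regions of the series the BAT rank was also lower than the iWAT rank in most cases: iWAT ranked above BAT in 61.9% of them and in 6 of 6 here, and eWAT above BAT in 61.9% and in 5 of 6. In the window the median rank of the common regions was 71.4% for eWAT, 78.4% for iWAT and 53.8% for BAT, and in the series 70.3%, 72.6% and 66.0%.

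The highest sites of iWAT and BAT were not among the common regions. They lay together at 16296952 to 16297176, with 47.3 normalized tags in iWAT (48 tags, rank 97.7%) and 36.8 in BAT (43 tags, rank 96.6%), and stood 16.6 and 14.1 times above their surroundings. The eWAT list held no site overlapping this pair. It had one at 16297248 to 16297468, 72 bp away, with 19.6 normalized tags (33 tags, 95% counting interval 22.7 to 46.3), a rank of 90.7% and a fold of 8.63. This was the single strong eWAT site of the window that no other list overlapped. The same arrangement was seen nearer the Gnaq end. A BAT site at 16138285 to 16138507 with 24.0 normalized tags (28 tags, rank 87.2%, 20.8 times its surroundings) ended 42 bp before an overlapping pair in iWAT and eWAT. That pair ran from 16138549 to 16138908 and held 22.7 normalized tags in iWAT (rank 79.5%) and 15.5 in eWAT (rank 82.0%).

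With a looser merging that also joined sites up to 200 bp apart, the 17 strong sites of the window fell into 7 places. Of these, 6 were listed in every depot, and in 4 the sites of all 3 lists were strong. At 1 of these 4, from 16103930 to 16104434, the eWAT (13.7) and BAT (18.0) counts lay exactly at the limit for strong sites. The place not listed in every depot was at 16196818 to 16197047. There eWAT held 13.7 normalized tags (rank 75.6%), again at the limit, iWAT held 9.85 (rank 20.2%) and BAT listed no site. No strong site was left in a place listed by a single depot. These counts of strong places have no share of the series beside them, and strong sites were mostly shared there too. Places listed in all 3 depots then made up 10 of 36 (27.8%), against 34.6% in the series merged in this way. Places listed in eWAT alone numbered 11 (30.6%, against 16.8%) and in iWAT alone 4 (11.1%, against 17.1%). These shares, too, partly describe the choice of the window for its eWAT-only sites. Merging thus removed 7 of the 8 BAT-only regions, 3 of the 7 iWAT-only and 4 of the 15 eWAT-only regions. Single-list regions became fewer in the whole series as well. There BAT-only regions went from 11332 to 7741, iWAT-only from 20317 to 15216 and eWAT-only from 19482 to 14941.

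Of the 45 regions, 4 were held in eWAT and iWAT only (against 11.3% in the series), 4 in the iWAT and BAT lists (against 6.73%) and 1 in BAT and eWAT (against 5.32%). None of those not yet described held a strong site. The 3 of iWAT and BAT lay at 16222064 to 16222359, 16288383 to 16288627 and 16441630 to 16441898. Their tag counts were 8.87, 11.8 and 10.8 normalized tags in iWAT and 9.42, 14.6 and 13.7 in BAT, with ranks from 10.3% to 36.7% in iWAT and from 23.4% to 62.2% in BAT. The 2 remaining regions of eWAT and iWAT, at 16124352 to 16124714 and 16359430 to 16359752, held 10.1 and 7.73 normalized tags in eWAT and 13.8 and 10.8 in iWAT. A single region was held in eWAT and BAT, at 16633022 to 16633269, with 8.33 and 9.42 normalized tags. An iWAT site of 14.8 normalized tags lay only 7 bp beyond it.

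Most eWAT-only sites were weak. Their median was 13 tags, the same as for all eWAT-only sites of the list, where the 11 shared eWAT sites of the window had a median of 20. Of the 15, 7 were in the lowest 25% of the eWAT list, against 47.9% of all eWAT-only sites, and 5 had the lowest score that the list contains, 11. The share of all eWAT-only sites with that score was not computed, so whether 5 is unusual cannot be said. In the lowest 25% of their lists were also 2 of the 7 iWAT-only sites, against 44.1%, and 4 of the 8 BAT-only sites, against 48.6%. The median fold over the surroundings of the 15 eWAT-only sites was 5.23, against 6.62 for all eWAT-only sites and 8.03 for the shared eWAT sites of the window. The eWAT-only sites of the window thus had the median tag count of eWAT-only sites in general, but a lower median fold. Their folds ranged from 4.39 to 10.3, and the lowest fold in the eWAT list was 4.0.

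Apart from the site beside the iWAT and BAT maximum, the highest eWAT-only sites were at 16206501 to 16206721 and 16392918 to 16393138. The first held 13.1 normalized tags (22 tags, rank 73.1%, fold 6.23) and lay 1204 bp from the nearest BAT site. The second held 10.7 (18 tags, rank 59.7%, fold 7.55) and lay 1257 bp from a BAT site. The most isolated eWAT site was at 16525590 to 16525810, 32640 bp from any site of another depot, with 8.92 normalized tags (15 tags, rank 44.4%) and a fold of 10.3. These sites were singled out after their values were seen.

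Distances to the next depot differed between the lists. A site of another list lay within 1 kb of 5 of the 15 eWAT-only sites, against 34.2% of all eWAT-only sites. It did so for 3 of 7 iWAT-only sites, against 37.2%, and for 7 of 8 BAT-only sites, against 44.9%. The median gap was 1257 bp for eWAT, 1410 bp for iWAT and 114.5 bp for BAT. Thus most BAT-only sites of the window stood right beside a white fat site. The exception was a BAT site at 16389177 to 16389399 with 9.42 normalized tags, 3519 bp from the nearest eWAT site. In iWAT the most isolated site lay at 16673832 to 16674054, 25600 bp from an eWAT site, with 14.8 normalized tags (15 tags, rank 54.6%) and a fold of 25.4.

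**Figure D3:**
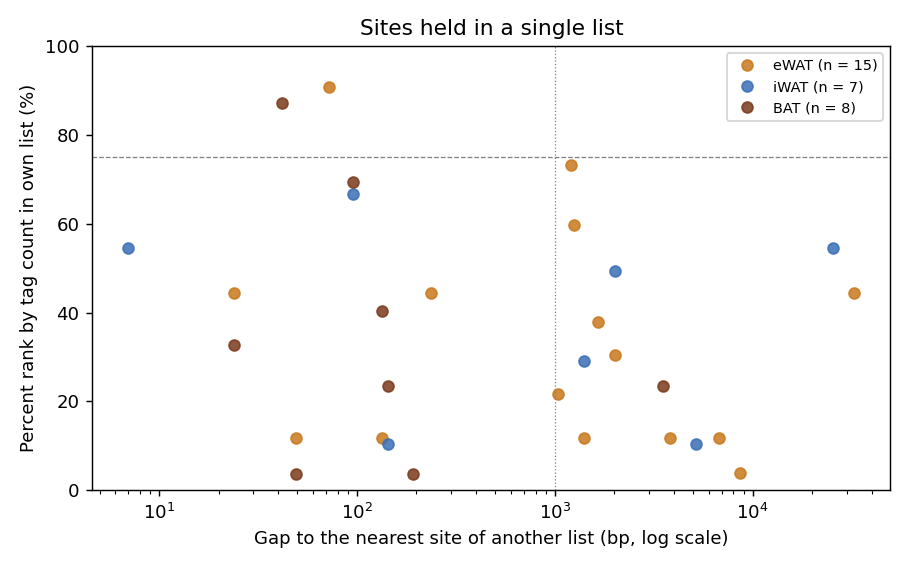
Percent rank by tag count in its own list (y axis) against the gap in bp to the nearest site of another list (x axis, log scale) for the 15 eWAT-only, 7 iWAT-only and 8 BAT-only sites of the window. The dashed line marks a rank of 75% and the dotted line 1 kb; both sites above the dashed line lie within 100 bp of a site of another list, and 7 of the 8 BAT-only sites lie to the left of the dotted line.

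The sites of each list were also counted along the window, with few sites per stretch, and differences between the lists were not tested. The first 100 kb of the window held 6 eWAT, 4 iWAT and 2 BAT sites, and the next held 9, 5 and 6. The numbers were 4, 3 and 4 in the third stretch and 3, 5 and 5 in the fourth, and the fifth held 2, 1 and 1. The stretch from 16600001 to 16700000 held 2, 2 and 1, and the last 20 kb held a single iWAT site. The densest stretch for eWAT was that from 16200001 to 16300000, for which the window was proposed, where 8 of the 9 eWAT sites were restricted, against 32.0% of the list. Strong sites there numbered 1 of 9 in eWAT (against 25.6%), 2 of 5 in iWAT (against 26.1%) and 2 of 6 in BAT (against 26.2%). The iWAT list had as many sites in the fourth stretch as in the second, and the BAT list had fewer in the first than in the third or the fourth. The longest stretch without a site in any list, 62908 bp, followed the eWAT site at 16525590, and the next longest, 56659 bp, followed the region that ends at 16138908.

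**Figure D4:**
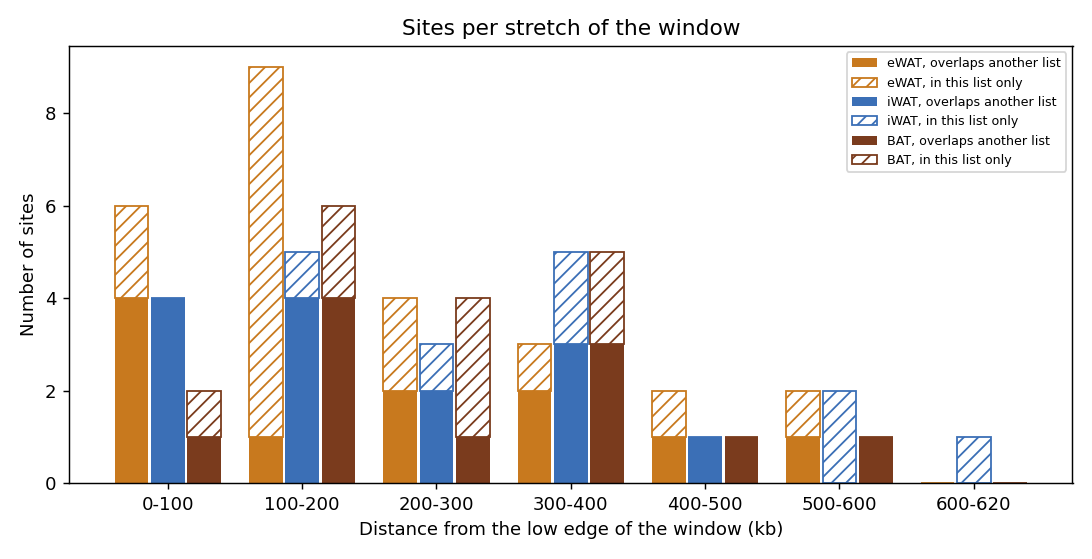
Number of sites (y axis) in each stretch of 100 kb from the low edge of the window (x axis; the last stretch is 20 kb) for eWAT, iWAT and BAT. Solid bars are sites that overlap another list and hatched bars sites that do not; the tallest bar is eWAT at 100 to 200 kb, with 9 sites of which 8 are hatched.

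Compared with the 3988 windows of 620 kb tiled over the genome that held any site, the window was moderately dense. At least 26 eWAT sites were found in 20.1% of these windows, at least 21 iWAT sites in 33.1% and at least 19 BAT sites in 24.4%; the medians were 14, 14 and 10. At least 15 eWAT-only sites were found in 1.35% of them, which describes the choice of the window. The 26 eWAT sites include these 15, so the eWAT total partly describes that choice too. At least 7 iWAT-only sites were found in 32.6% and at least 8 BAT-only sites in 6.02%. The adjoining 620 kb on the low side held 13 eWAT, 12 iWAT and 7 BAT sites, and those on the high side 13, 11 and 7.

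The focus ratio and clonal fold were close to those of the lists, while the median fold over the surroundings was lower in eWAT and BAT and higher in iWAT. The median focus ratio, which gauges how tightly tags gather at the centre of a site, was 0.686 for eWAT, 0.692 for iWAT and 0.679 for BAT, against 0.688, 0.704 and 0.704 in the lists. The clonal fold, a measure of repeated tags, ranged from 0.90 to 0.98 in the window, and the median of each list was 0.97. Median fold over the surroundings was 5.92 in eWAT against 7.46 in its list, 11.3 in iWAT against 9.91, and 7.88 in BAT against 9.23. Site widths were 220 bp in eWAT and 222 bp in iWAT and BAT, so the 3 lists covered 5720, 4662 and 4218 bp of the window, with mean normalized tag counts of 10.7, 18.2 and 14.5 per site.

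The edges of the window fall between sites. Just inside the low edge lay the first common region, about 4.04 kb from it, and just outside lay an eWAT site at 16090517 to 16090737 (19.6 normalized tags), an iWAT site at 16090659 to 16090881 (22.7) and a BAT site at 16090914 to 16091136 (15.4). The last sites inside the high edge were an iWAT site at 16701284 to 16701506 (10.8 normalized tags), an eWAT site at 16699654 to 16699874 (6.54) and, further in, the BAT site of the region at 16633022. The next sites outside, in all 3 lists, were more than 120 kb beyond the edge, at 16840684 in eWAT (10.1 normalized tags), 16840386 in iWAT (14.8) and 16840604 in BAT (18.8).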

How the data were processed

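DNase-seq sites were taken from 1 deposited list for each of the eWAT, iWAT and BAT libraries. STAR, HOMER and mm9 are named, without roles or settings, per the submitters' processing notes. Per the file headers, each site carries the authors' normalized tag count, used as a signal; no source used here states the library total behind it. Per the file headers it also carries a findPeaks score, a focus ratio (a fraction), a fold change over local surroundings and a clonal fold change (ratios), and a p-value against the surroundings. The deposited tag counts were whole multiples of 1 step (99.99% of values in eWAT, 100% in iWAT and BAT, within 0.1 tag), and tags per site were computed from it.

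Sites overlapping by at least 1 bp were counted as shared and merged into regions. Strong sites are in the top 25% of their list by tag count. Every common region, the 5 highest sites per list, each strong single-list site and the sites at the window's edges were to be named; further sites were named after their values were seen. Shares carry exact (Clopper-Pearson) and tag numbers exact Poisson 95% intervals, which cover counting error only. With 1 library per depot no test between depots was made. The code was tested on simulated data. The window and lists were chosen with earlier results of these data known. No annotation of the build mm9 was used here, so no site was assigned to a gene, and the list of Gq pathway genes, the cell type markers and the genes of most similar pattern were not analysed. Scripts ran on scipy 1.17.1, pandas 2.3.3, numpy 2.4.6 and Python 3.11.15.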

Additional observations from a re-analysis of the deposited data

How the results depend on the processing

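Of 66 values under other settings, 51 stayed within the limits set for a change (within 1.5 times for counts, within the 95% interval for shares). Requiring an overlap of 50% of the site width, widening the window by 50 kb on each side, and ranking by fold or by score moved none of the values recomputed. The limit for shares was loose, because intervals from so few sites are wide. Ranked by fold, strong sites made up 15.8% of the BAT sites instead of 26.3%, and 15.4% of the eWAT sites instead of 23.1%. The iWAT share was 33.3% instead of 28.6%. These shares lay inside their intervals, which does not show that they are stable. With the top 50% of each list, the window held 12 eWAT, 10 iWAT and 8 BAT sites, which formed 6 eWAT-only, 3 iWAT-only and 4 BAT-only regions, 4 regions in 2 lists and 3 in all 3 lists. With a common minimum score it held 17 eWAT sites and 7 eWAT-only regions, and with lists of equal length 9 eWAT-only regions. With sites within 200 bp merged there were 4 iWAT-only regions, 1 BAT-only region and 10 in all 3 lists, and 5.26% of BAT sites were restricted. The common minimum score assumes that all libraries were scaled to the same total. A place without a listed site need not be closed, since the files give tag counts for listed sites alone, and the weakest window sites, with 9 or 10 tags, lie close to the lower limit of their lists. No paired analysis was possible because each depot has 1 library.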
